A study of Mus musculus with 8 samples.

Results

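Insulin signalling in liver was examined through 10 genes: the insulin receptor gene Insr, the inhibitors of the receptor Enpp1, Ptpn1 and Grb14, the adaptors Irs1 and Irs2, the lipid kinase subunit gene Pik3r1, the kinase genes Akt1 and Akt2, and the transcription factor gene Foxo1. They were chosen by symbol out of 34777 gene names on the array, with earlier results of the same arrays known, and are represented by 19 probes of 60 bases. Liver RNA came from 4 male NZO mice (NZO/HiBomDife), an inbred strain that becomes obese and diabetes-prone, and from 4 male lean B6 mice (C57BL/6). All 8 mice were 6 weeks old and received a diet with 45% fat, and 1 single-colour Agilent array was hybridised for each mouse. The study used expression differences between the strains in a search for DNA variants that disturb the binding of microRNAs to their targets. No chow-fed mice and no insulin-treated mice were analysed here, the time since the last meal is not given in the sources used here, and everything that differs between the strains is part of each comparison. In RNA of whole liver, fewer cells of a type and less RNA per cell cannot be told apart.

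Insulin binds a receptor that is a tyrosine kinase. The activated receptor phosphorylates the adaptor proteins of the IRS family, which recruit PI 3-kinase, and its lipid product activates Akt. In the liver, Akt drives glycogen synthesis and the synthesis of fatty acids and keeps FoxO1 out of the nucleus, so that genes of glucose production and Igfbp1 are repressed. The protein of Enpp1 is a membrane pyrophosphatase that also binds the receptor and inhibits it, Ptpn1 encodes a phosphatase that removes phosphate from the receptor, and Grb14 encodes an adaptor that blocks its kinase.

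Because FoxO1 acts on promoters, the letters of its known sites, CAAAACA and GTAAACA on either strand, were searched in the RefSeq windows from 250 bases before to 50 bases after each gene start (GRCm38.p6). CAAAACA occurred in 6.28% and GTAAACA in 3.65% of 32851 windows, and either in 9.63%. At least 1 window with a match was found for 3 of 9 members with a window (Irs1, Irs2 and Akt1) and for 3 of 9 genes of a list of FoxO1 targets (Igfbp1, G6pc and Sesn1), against 10.8% of all 27025 genes with a window. The stretches of 30 bases below are on the strand of the gene, with the motif in capitals. The 2 targets are shown because they behaved differently on the arrays, and Irs2 as 1 of the 3 members with a match. The matches of Irs1, Akt1 (GTAAACA) and Sesn1 are not printed. A match describes the letters only.
Igfbp1, chr11:7197668-7197697, plus strand, motif 108 bases before the start: gagctcacaagCAAAACAaacttattttga
G6pc, chr11:101367531-101367560, plus strand, motif 174 bases before the start: ttttgtgtgccTGTTTTGctattttacgta
Irs2, chr8:11008948-11008977, minus strand, motif 37 bases before the start: gagtcacgtgtTGTTTTGctcttagttcag

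Levels are given as the log2 of the processed signal relative to the 75th percentile of the same array, so that 0 is the level of a fairly bright probe and 1 unit is a doubling. Differences are given as NZO minus B6 on this scale, with the standard error of the limma fit over all tested probes. Probes entered the test if at least 1 strain had them well above background in all 4 mice, which held for 27662 of 55681 probes and for 19 of the 19 member probes. Of these, 18 were above background on all 8 arrays. Each array held 59305 spots besides the controls, of which 50.4% to 55.0% in NZO and 53.1% to 60.1% in B6 were well above background. With 4 arrays in a strain, small differences have wide errors.

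Enpp1 had the largest difference of the 10 genes, and its probes disagreed. The probe A_51_P408584 (mm9, chr10:24358048-24358107, minus strand) read -0.57, -0.45, -0.47 and -0.42 in the B6 mice 011, 010, 015 and 009. It read -5.32, -6.15, -6.44 and -6.16 in the NZO mice 007, 003, 009 and 011, and was above background on 0 of 4 NZO arrays. The groups were far apart, with all 4 B6 mice close together and all 4 NZO mice at background. The mean level was -0.48 ± 0.06 (SD, n = 4) in B6. Because the NZO level is only a limit, the probe was at least 12.0-fold higher in B6, with each NZO array set to its own value or, if higher, to the dimmest signal found above background on it. Among all tested probes, 1.35% were above background on all arrays of one strain and on none of the other.

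The other Enpp1 probe, A_55_P2055607 (mm9, chr10:24361540-24361599, minus strand), showed no such pattern. It read -3.25, -3.14, -2.65 and -3.26 in NZO and -3.48, -2.93, -3.45 and -3.90 in B6. The strains overlapped, and the mean was 0.37 higher in NZO (SE 0.22, 95% confidence interval -0.15 to 0.88). It was well above background on all 8 arrays, but its level was low, near the dimmest signals found above background (-3.93 to -4.51 across the arrays). The 2 probes lie 3432 bases apart on chromosome 10 and their differences between the strains were at least 3.95 apart on the log2 scale, with the lower probe at its limit. The files assign the lower probe to an Ensembl transcript and the other to a RefSeq transcript, 25% of the bases of the latter probe and 41.7% of the former are G or C, and what separates their readings was not tested. Genome annotation of mm9 and the sequence of the NZO genome were not used here.

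**Figure D1:**
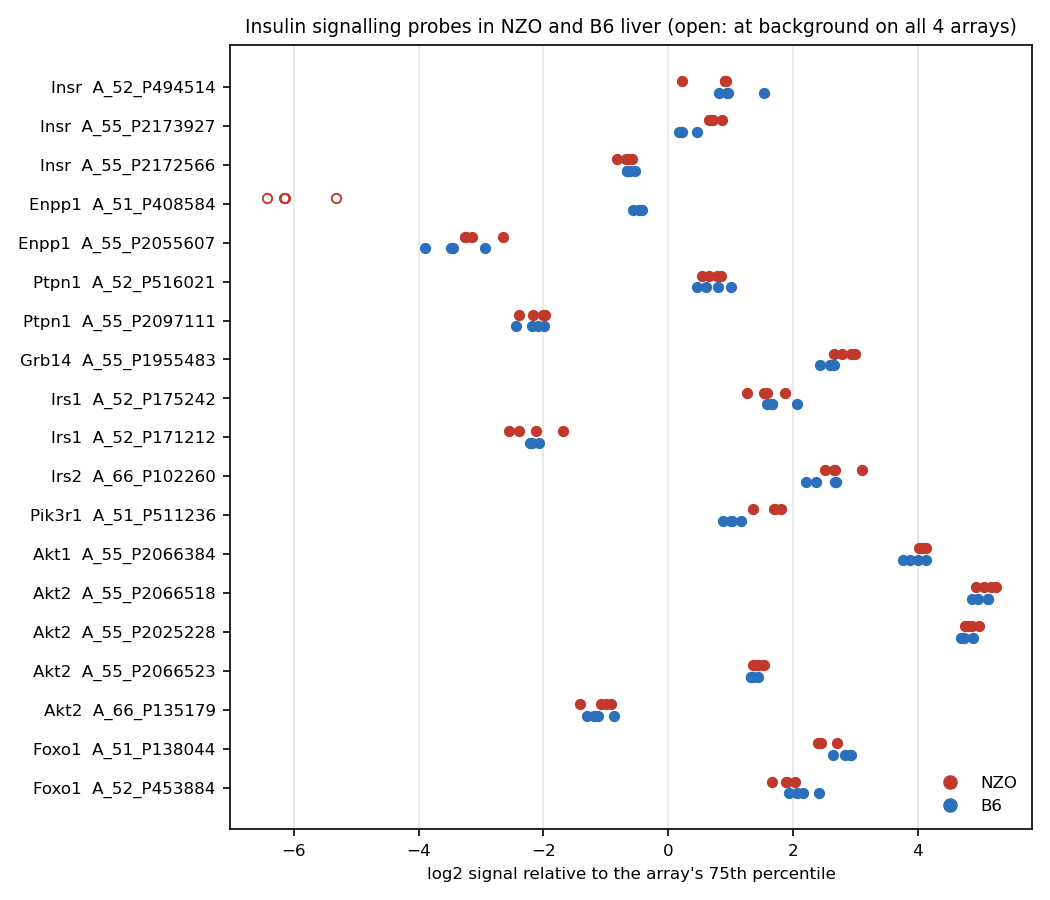
Level of each of the 19 probes (rows) on each array, as log2 signal relative to the 75th percentile of the array; red points are the 4 NZO mice, blue points the 4 B6 mice, and open points mark a strain with 0 of 4 arrays above background. Enpp1 A_51_P408584 is the 1 probe with open points, and the other 18 probes differ by -0.34 to 0.62 between the means.

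The difference of A_51_P408584 was present in each batch that held both strains. B6 was at least 11.1-fold higher within the slide with NZO mouse 003 and B6 mice 010 and 015, at least 11.9-fold within the first scan day and at least 12.5-fold within the second. With 1 mouse left out at a time, the limit lay between 11.5-fold and 12.4-fold. Every NZO reading lay below the dimmest signal above background, so these limits follow that floor and the B6 readings. They cannot show how far the NZO level varies. The mice of the slide are also part of the first scan day, and the second held 1 NZO mouse. The difference of the readings themselves, -5.54, carries the readings of NZO at background and moved with how the background was treated, to -1.41 after normexp correction with an offset of 50 and to -2.44 in the deposited table, which holds raw intensities.

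The 3 genes whose probes followed A_51_P408584 most closely over the 8 arrays were Srd5a1 (Pearson's r 0.998), a steroid 5-alpha-reductase gene, the phosphatase gene Dusp23 (0.997) and Slx1b (0.997). Dusp23, which every array measured, was lower in NZO by 2.52 on the log2 scale. Srd5a1 and Slx1b were, like Enpp1 A_51_P408584, above background on 0 of 4 NZO arrays, and were at least 15.4-fold and at least 5.75-fold higher in B6. Of all tested probes, 56 had an r above 0.99 with A_51_P408584, a count that includes this probe itself. These correlations hold the difference between the strains and little else. Because its NZO readings lie at background, the order of the probes by r is not a measured ranking.

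Insr was measured by 3 probes, and they also disagreed. The probe A_55_P2173927 (mm9, chr8:3155472-3155531) read 0.69, 0.71, 0.65 and 0.85 in NZO and 0.23, 0.18, 0.45 and 0.20 in B6. The 4 NZO values were all higher than the highest B6 value, and the difference was 0.46 (SE 0.10), or 1.38-fold. It was 0.35 after normexp correction and 0.22 in the deposited table, where the median of all probes was shifted to -0.15 from 0.02. The probe A_52_P494514 (mm9, chr8:3151667-3151726) read 0.23, 0.90, 0.93 and 0.91 in NZO against 0.81, 1.53, 0.94 and 0.96 in B6. Here the strains overlapped, with a low value in NZO mouse 007 and a high value in B6 mouse 010, and the difference was -0.32 (SE 0.22), or -0.15 without NZO mouse 007 and -0.16 without B6 mouse 010. The probe A_55_P2172566 (mm9, chr8:3154024-3154083) was nearly equal in both strains, with -0.68 ± 0.10 in NZO and -0.62 ± 0.06 in B6 (SD, n = 4 each) and a difference of -0.06 (SE 0.09).

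The 3 Insr probes start at bases 4745, 6193 and 8550 of the same RefSeq transcript, and their differences were 0.46, -0.06 and -0.32 in that order. The readings of the probes at 6193 and 8550 rose and fell together over the 8 arrays (r 0.92, and 0.91 after the mean of each strain was removed), whereas the probe at 4745 had an r of -0.47 and -0.49 with them, and of -0.29 and -0.11 within strains. At the probes at 6193 and 8550, NZO mouse 007 read lowest in NZO and B6 mouse 010 highest in B6. The r without these mice is not given here. These r describe 8 arrays and were not tested. No single direction can be given for Insr.

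**Figure D2:**
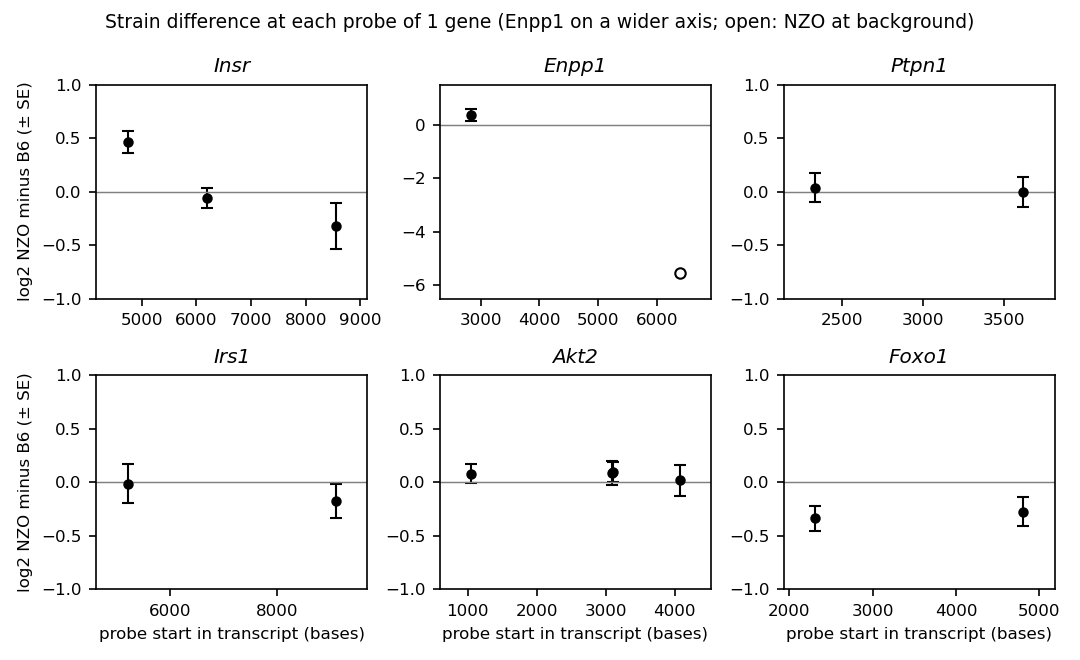
Difference between the strains (log2 NZO minus B6, with standard error) at each probe of the 6 members with more than 1 probe, against the start of the probe in its transcript in bases; Enpp1 has a wider vertical axis, its 2 positions belong to different transcript records, and its open point, drawn without an error, marks a reading with NZO at background. Probes of Ptpn1, Akt2 and Foxo1 lie close to each other in height, while those of Enpp1 differ by at least 3.95 and those of Insr by up to 0.78.

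Ptpn1 and Grb14, the other inhibitors among the members, differed little. The Ptpn1 probes A_52_P516021 and A_55_P2097111 had differences of -0.01 (SE 0.14) and 0.04 (SE 0.14), and the strains overlapped at both. Grb14 A_55_P1955483 read 2.66, 2.99, 2.93 and 2.78 in NZO and 2.59, 2.62, 2.66 and 2.42 in B6. The groups touched without overlapping, and the difference was 0.27 (SE 0.11), which dropped to 0.13 after normexp correction. In the deposited table it was -0.05, but there the median of all probes was also shifted, to -0.15 from 0.02.

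The adaptors were near equality. Irs1 had differences of -0.18 (SE 0.16) at A_52_P175242 and -0.01 (SE 0.18) at A_52_P171212. At A_52_P175242 the difference was -0.08 without NZO mouse 007 and -0.07 without B6 mouse 010. Irs2 A_66_P102260 read 3.11, 2.52, 2.66 and 2.68 in NZO and 2.21, 2.69, 2.37 and 2.68 in B6. Its values overlapped, with a difference of 0.25 (SE 0.17) and a 95% confidence interval from -0.13 to 0.64. The sign of the Irs2 difference was not the same in all settings, which gave values from -0.01 to 0.67.

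Pik3r1, which encodes the main regulatory subunit of PI 3-kinase, had the largest difference among the members after Enpp1. Its probe A_51_P511236 (mm9, chr13:102454406-102454465) read 1.35, 1.80, 1.69 and 1.71 in NZO and 1.16, 0.88, 1.02 and 1.00 in B6. All NZO mice were above all B6 mice, with means of 1.64 ± 0.20 and 1.02 ± 0.11 (SD, n = 4 each). The difference of 0.62 (SE 0.12), or 1.54-fold, stayed below the fold threshold of 0.7. It was 0.85 within the slide with both strains, 0.78 within the first scan day and 0.27 within the second, which held 1 NZO mouse, the lowest of the 4. The Pik3r1 difference dropped to 0.45 after normexp correction. It was 0.35 in the deposited table, where the median of all probes was shifted to -0.15 from 0.02.

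The kinase genes Akt1 and Akt2 were near equality at each probe. Akt1 A_55_P2066384 differed by 0.13 (SE 0.10). The 4 Akt2 probes, of which A_55_P2066518 and A_55_P2025228 overlap in sequence, had differences of 0.08, 0.09, 0.08 and 0.02, with standard errors from 0.09 to 0.14. The strains overlapped at each of these probes.

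Foxo1 was lower on average in NZO at both probes. A_51_P138044 read 2.39, 2.45, 2.70 and 2.42 in NZO and 2.64, 2.93, 2.83 and 2.91 in B6, a difference of -0.34 (SE 0.11). The groups overlapped through NZO mouse 009, which lay above B6 mouse 011. A_52_P453884 gave -0.28 (SE 0.13), or -0.21 without NZO mouse 007 and -0.18 without B6 mouse 010, the mice with the lowest NZO and the highest B6 reading at both probes. The probes followed each other over the arrays (r 0.89, and 0.81 within strains).

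Over all 19 probes, the median difference was 0.04, against 0.02 over all tested probes, and the median size of the difference was 0.18, against 0.24. The median spread within a strain was 0.18 (SD), against 0.23. The sign of the difference was the same in all 19 other settings at 6 probes, those of Enpp1, Foxo1 and Pik3r1 and Insr A_55_P2173927, and turned in at least 1 setting at the other 13. The deposited table, among these settings, shifted the median of all probes to -0.15 from 0.02. Grb14 and Akt1 turned in that setting alone. With a call defined as a limma p of at most 0.05 after Benjamini-Hochberg adjustment over all tested probes and a log2 difference of at least 0.7, 1 member probe was called lower in NZO, Enpp1 A_51_P408584, and 0 were called higher. Among all tested probes 9.63% were called, 4.36% higher and 5.27% lower. The strains did not overlap at 4 of the 19 probes, 3 of them higher in NZO, and this held for 22.0% of all tested probes. The members were chosen with these differences known, so that their counts are a description.

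**Figure D3:**
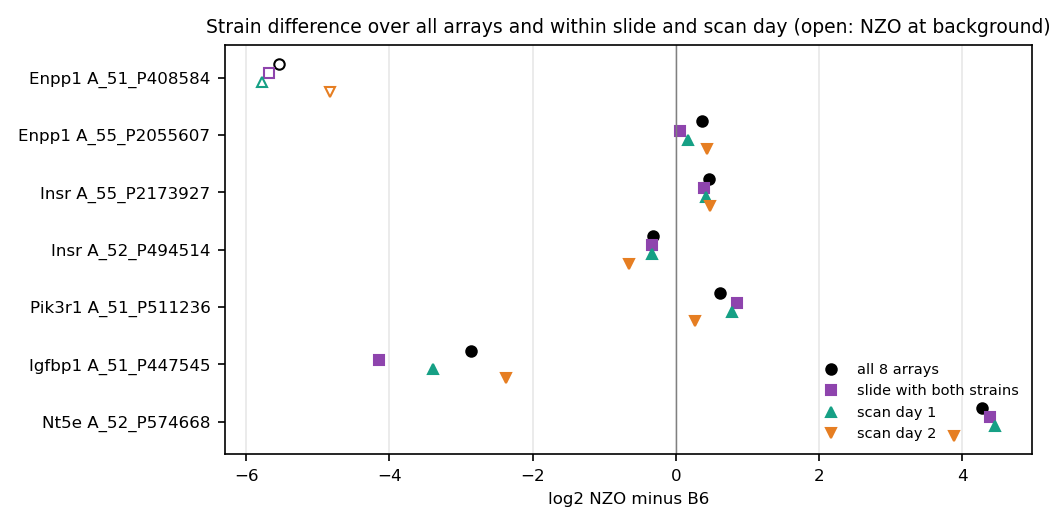
Difference between the strains (log2 NZO minus B6) over all 8 arrays (circles), within the slide with both strains (squares) and within the first (upward triangles) and second scan day (downward triangles), for 5 member probes, Igfbp1 and Nt5e. At each probe the 4 values lie on the same side of 0. The open symbols of Enpp1 A_51_P408584 are readings with NZO at background, for which B6 was at least 11.1-fold to 12.5-fold higher.

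The rest of the pathway was described with lists of 76 other genes, which were written with earlier results of these arrays known. Of these, 75 were found on the array and 73 were tested, each by its brightest probe. At the same thresholds 1 gene rose in NZO, 4 fell and 68 did not pass, 3 of which had an adjusted p below the threshold with a smaller fold (Trib1, Tbc1d1 and Prkci, each lower). The share of genes called was 6.85%, against 9.43% of the 20154 genes tested on the array, 4.44% higher and 4.99% lower. Past the adjusted p at any fold were 14.3% of all genes, and 27.9% had an unadjusted p within the threshold of 0.05. Of the 73 tested pathway genes, 25 had such an unadjusted p. They were 7 of 14 further inhibitors and partners of the receptor, 1 of 4 genes of receptor handling and 3 of 9 adaptors. The rest were 3 of 10 genes of the PI 3-kinase step, 6 of 18 of Akt control and mTOR and 5 of 10 Akt substrates and FoxO factors. The Ras and MAP kinase branch had 0 of 8. The median difference of the 73 genes was -0.01, against 0.03 over all genes.

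Among 14 further inhibitors, phosphatases and binding partners of the receptor, 1 rose and 1 fell, with a median difference of -0.15. Grb10 A_55_P1955457, an adaptor gene related to Grb14, read -0.74, -1.04, -1.32 and -1.67 in NZO and -1.47, -2.87, -2.94 and -2.48 in B6. B6 mouse 011 lay within the range of the NZO mice, and the difference was 1.25 (SE 0.34, limma adjusted p 0.0457). This call was lost in 11 of 20 other settings with a test, among them after normexp correction (0.53), in the deposited table (0.58) and with the replicate block (0.48), and at a size of at least 1.08 without NZO mouse 007 (limma adjusted p 0.097), 003 (0.105) or 009 (0.080) and without B6 mouse 010 (0.118), 015 (0.11) or 009 (0.105). Sh2b2 A_66_P113490, which encodes an adaptor that binds the receptor, fell by 0.98 (SE 0.25, limma adjusted p 0.0323). It lost the call in 9 of these 20 settings, among them after normexp correction (-0.60), without NZO mouse 003 (limma adjusted p 0.083) or 011 (0.083) and without B6 mouse 010 (0.063) or 009 (0.063). Ptprj, a receptor phosphatase gene, did not pass at its brightest probe (-0.20), while A_55_P1992104, 1 of its 4 probes, fell by 1.16 (limma adjusted p 0.0129). This probe lost the call after normexp correction (-0.44), with the replicate block (limma adjusted p 0.132) and with the methods' t-test (adjusted p 0.071). In the replicate block only the mouse numbers found in both strains, 009 and 011, inform the contrast. The suppressor genes Socs1 (-0.46) and Socs3 (-0.23) did not pass. Of 4 tested genes of receptor handling and insulin clearance, limma called 0, and 1, the gene Marveld1 (0.33), had an unadjusted p within the threshold; the insulin-degrading enzyme gene Ide had a difference of -0.54 (95% confidence interval -1.20 to 0.12).

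Of 9 adaptors with a median difference of -0.32, Sos1 was the 1 gene that fell. Its probe A_52_P341339 read -3.09, -2.94, -2.90 and -3.29 in B6 and lay at background on all 4 NZO arrays (-5.23, -5.95, -6.38 and -6.03), so that it was at least 2.01-fold higher in B6. The probe entered the test through B6 alone. Its limma adjusted p of 0.00011 is for the difference of the readings, -2.84, and not for this limit. Sos1 encodes the exchange factor that connects the receptor to Ras. After normexp correction its difference was -0.14 and in the deposited table -0.62, and it passed in neither. The 8 tested genes of the Ras and MAP kinase branch had differences from -0.07 to 0.20, and limma called 0 of them, also with an unadjusted p at any fold.

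Of 10 tested subunits, lipid phosphatases and the next kinase of the PI 3-kinase step, limma called 0, while 3 had an unadjusted p within the threshold (median difference 0.12). The catalytic subunit gene Pik3ca had a difference of -0.54 (SE 0.20), and Pik3r2 and Pik3r3, which encode other regulatory subunits, 0.15 and 0.27. Pdpk1, whose product phosphorylates Akt, differed by 0.30 with a limma adjusted p of 0.051.

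Of 18 genes that control Akt or form the mTOR complexes, 1 fell (median difference -0.04). Rps6kb1 encodes the S6 kinase, which also feeds back on IRS proteins. Its brightest probe A_55_P2019083 read 2.43, 2.70, 2.79 and 2.75 in NZO and 3.66, 3.40, 3.52 and 3.45 in B6, without overlap (-0.84, SE 0.11, limma adjusted p 0.0018), and it lost the call with a fixed slide term (limma adjusted p 0.092) or the replicate block (0.129). The remaining probes of Rps6kb1 had differences of -0.03 and -0.21 and did not pass, and the mean of the 3 probes, -0.36, did not pass either.

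Of 10 Akt substrates and FoxO factors, Tbc1d4 fell (median difference -0.05). It encodes a GTPase-activating protein that restrains glucose transporter traffic, and its probe A_55_P2024953 read -4.47, -3.22, -3.28 and -2.69 in NZO and -1.86, -1.83, -2.10 and -2.10 in B6 (-1.45, SE 0.34, limma adjusted p 0.0235). It was above background on 3 of 4 NZO arrays. The call was lost in 10 of 20 other settings with a test, among them after normexp correction (-0.22), in the deposited table (-0.66) and without B6 mouse 011 (limma adjusted p 0.064), 010 (0.065), 015 (0.050) or 009 (0.053). The second Tbc1d4 probe, A_52_P381430, was above background on 1 of 4 NZO arrays. Its readings differed by -0.68 (limma adjusted p 0.040), which stayed below the fold threshold. The mean over the Tbc1d4 probes passed (-1.06, limma adjusted p 0.0070). Foxo3 (0.51) and Foxo4 (0.33) did not pass.

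**Figure D4:**
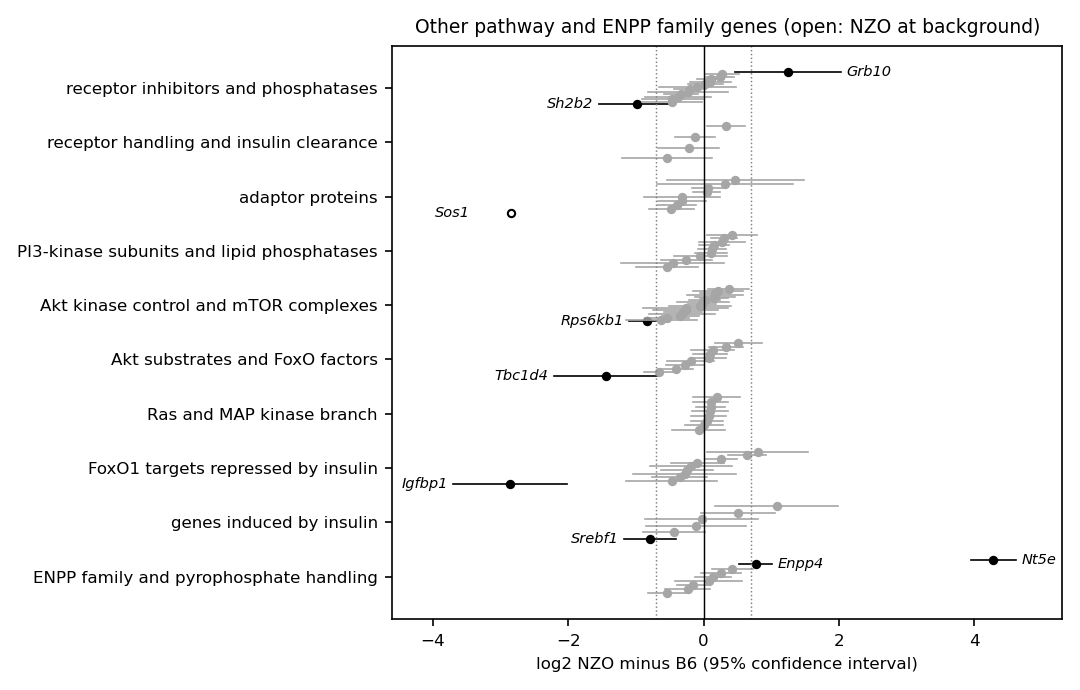
Difference between the strains (log2 NZO minus B6) with 95% confidence interval for each tested gene of 10 lists, by its brightest probe; black and named genes passed both thresholds, grey genes did not, and dotted lines mark the fold threshold of 0.7 in either direction. The open point of Sos1, drawn without an interval, has NZO at background and marks a reading, not a measured size. Most genes lie within the dotted lines, and among genes above background on all 8 arrays Igfbp1 and Nt5e lie farthest from 0.

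Most genes downstream of the pathway did not pass. Of 10 genes repressed by insulin through FoxO1, 1 fell, and the median difference was -0.22. Igfbp1, whose secreted product binds IGF-I and whose promoter stretch is printed above, read 3.78, 3.10, 4.19 and 4.27 in NZO and 6.08, 7.37, 7.12 and 6.20 in B6. The groups were apart, with a difference of -2.86 (SE 0.37, limma adjusted p 0.00127), or 7.25-fold lower in NZO. It was -4.14 within the slide with both strains and -2.37 within the second scan day. With the replicate block, which rests on the mice numbered 009 and 011, it dropped to -1.91 and lost the call (limma adjusted p 0.0574). G6pc, whose stretch is also printed above and which encodes the last enzyme of glucose release, had a difference of -0.28 (95% confidence interval -1.04 to 0.48), and Pck1, which encodes an early enzyme of gluconeogenesis, -0.47 (-1.14 to 0.20). Neither passed. Mttp, needed for VLDL assembly, had a difference of 0.64 with a limma adjusted p of 0.0099 and stayed below the fold threshold. Pdk4 was also higher on average in NZO, by 0.80 (95% confidence interval 0.06 to 1.55), and Apoc3 by 0.26 (0.02 to 0.50). Pdk4 was past the fold threshold but not past the adjusted p, and neither gene was called. Ppargc1a (-0.35), Sesn1 (-0.25), Klf15 (-0.19) and Sesn3 (-0.09) were lower on average and did not pass.

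Of 6 genes induced by insulin, with a median difference of -0.06, the gene Srebf1, a regulator of lipid synthesis genes, fell by 0.79 (SE 0.17, limma adjusted p 0.0162). Its values were 0.49, 1.02, 0.71 and 0.96 in NZO and 1.33, 1.52, 1.55 and 1.94 in B6, without overlap. It did not pass with the slide as a fixed term (-0.52, limma adjusted p 0.231) or with the replicate block (limma adjusted p 0.255), and dropped below the fold threshold without NZO mouse 007 (-0.69) and without B6 mouse 009 (-0.67). The lipid synthesis genes Fasn (-0.02), Scd1 (-0.10) and Acly (0.51) did not pass. The brightest probe of Pnpla3, a lipase-related gene, had a difference of 1.08 (limma adjusted p 0.118) and did not pass, while A_51_P389265, its other probe, passed as higher in NZO (limma adjusted p 0.0045) but was above background on 1 of 4 B6 arrays, so that the difference of its readings, 2.75, is not a measured size. It was 0.77 after normexp correction and 1.01 in the deposited table, and the call was lost with the replicate block (limma adjusted p 0.187) and with the methods' t-test (adjusted p 0.052). The mean over the Pnpla3 probes, which holds the same dim readings, passed (1.92, limma adjusted p 0.0088).

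Enpp1 also belongs to a family of ectoenzymes that split nucleotides and phospholipids outside the cell. Of 11 genes of this family and of pyrophosphate and adenosine handling, 9 were tested and 2 rose (median difference 0.14). Nt5e encodes the ectoenzyme CD73, which turns AMP, a product of Enpp1, into adenosine. Its probe A_52_P574668 read 3.25, 3.61, 3.79 and 3.64 in NZO and -0.57, -0.60, -0.97 and -0.70 in B6. The difference of 4.28 (SE 0.15, limma adjusted p 1.4e-06), or 19.5-fold, passed in each of the 20 other settings with a test and lay between 3.58 and 4.47 over all 23 settings. Enpp4 rose by 0.77 (SE 0.11, limma adjusted p 0.0020), with values from 2.44 to 2.73 in NZO and from 1.72 to 2.0 in B6. It lost the call in 4 of 20 settings, after normexp correction (0.62) and in the deposited table (0.49) by its size, and by its limma adjusted p with a fixed slide term (0.069) or the replicate block (0.143). Enpp3 was lower by 0.54 on average and stayed below the fold threshold (limma adjusted p 0.0247), and Enpp2 (-0.23) and Enpp5 (-0.16) did not pass. The pyrophosphate transporter gene Ank (0.26) and the phosphatase gene Alpl (0.08) did not pass either.

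**Figure D5:**
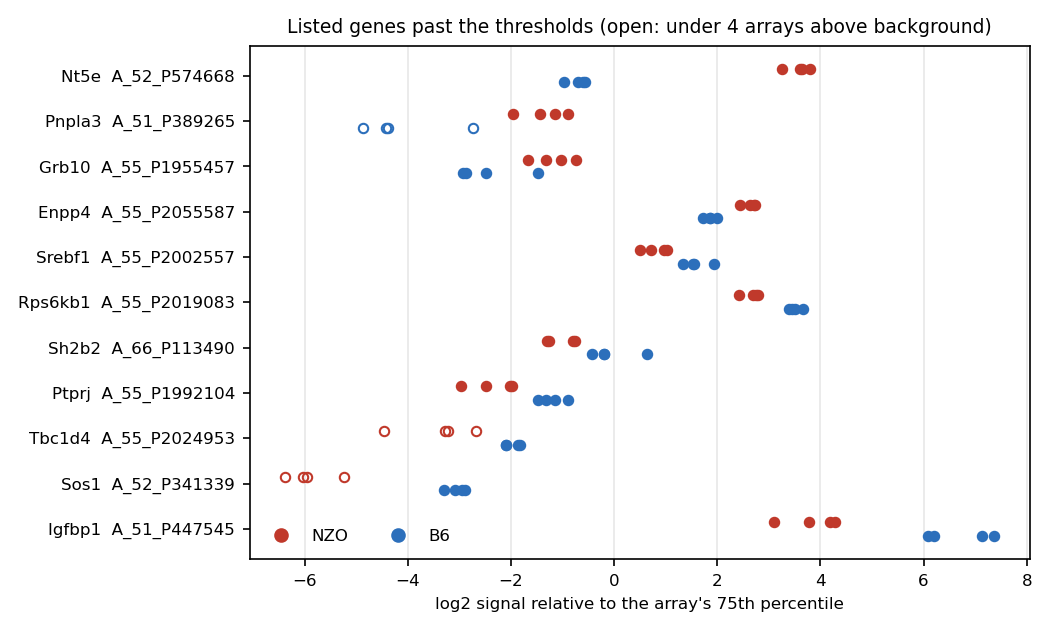
Level of the listed probes that passed both thresholds (rows), as log2 signal relative to the 75th percentile of the array, for 4 NZO mice (red) and 4 B6 mice (blue); open points mark a strain with fewer than 4 arrays above background. Nt5e and Igfbp1 are the probes above background on all 8 arrays with the widest gaps, while Sos1, Tbc1d4 and Pnpla3 rest on dim readings in 1 strain.

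The hepatocyte markers Alb, Ttr, Apoa1, Cps1 and Tat were above background on all arrays, and limma called 0 of 5, also with an unadjusted p at any fold, with a summed linear signal (each probe relative to the 75th percentile) 1.13 times as high in NZO as in B6. Among markers of other cells, limma called some of the macrophage, stellate, biliary and red blood cell lists and 0 of the endothelial, adipocyte, exocrine pancreas and skeletal muscle lists. Of 6 macrophage and leukocyte markers, Clec4f (-1.13) and Marco (-1.83) fell and 4 did not pass, with differences in both directions (Ptprc -0.51, Cd68 -0.42, Lyz2 0.41 and Cd3e 0.33). Of these 4, Cd68 had a limma adjusted p of 0.045 and stayed below the fold threshold. The sum of the 6, led by Clec4f, which had fallen itself, was 41.3, 32.5, 30.2 and 30.5 in NZO and 60.8, 55.5, 85.2 and 54.6 in B6. Of 5 stellate markers, Pdgfrb fell (-0.99), and the sum, led by Dcn, was 0.774 times that of B6. Of 4 biliary markers, 3 were tested and Sox9 fell (-1.46), with the sum, led by Krt19, at 0.493 times that of B6. Of 4 red blood cell markers, Hba-a1 (1.01) and Alas2 (0.90) rose, and the sum, led by Hba-a1, was 365, 318, 470 and 293 in NZO against 208, 165, 155 and 197 in B6. An unadjusted limma p within the threshold was found for 5 of 6 macrophage and leukocyte and 2 of 5 stellate markers. It was also found for 3 of 3 tested biliary and 3 of 4 red blood cell markers. Of 5 endothelial markers limma called 0, and 2 had an unadjusted p within the threshold, in opposite directions. These were Stab2 (0.49, limma adjusted p 0.0089) and Cdh5 (-0.27), and the sum, led by Clec4g, was 1.1 times that of B6.

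Of 6 adipocyte markers 3 were tested and 0 called by limma, with 1 at an unadjusted p within the threshold, Car3 (0.47, limma adjusted p 0.013). Adipoq and Plin1 were above background on none of the arrays, and the sum (1.38 times that of B6) was led by Car3, which is also a liver gene. Of 6 exocrine pancreas markers 2 were tested and 0 called by limma, also with an unadjusted p, and Cela3b, Pnlip, Cpa1 and Prss2 were at background on all arrays. Of 4 skeletal muscle markers 3 were tested and 0 called by limma, also with an unadjusted p. Their sum, led by Myh4, was 16.4 in NZO mouse 007 and 5.49 in B6 mouse 010, and at most 1.39 in the other mice. These 2 mice also gave the lowest NZO and the highest B6 reading at 7 of the 19 member probes, both of Foxo1, A_52_P494514 and A_55_P2172566 of Insr and 1 each of Irs1, Ptpn1 and Akt2. The share over all tested probes is not given here, so this count has no background to be read against. The part of these cell types in the differences of the insulin signalling genes was not tested.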

How the data were processed

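The authors deposited scanner output with the intensity of each spot, made with Agilent Feature Extraction 11.0.1.1 per the file headers (9.1 per the submitters' processing notes). Its processed signal has the background subtracted, with no scaling between arrays. A deposited table named as normalized held the same values as the raw median intensity at all 59305 spots of each array (tolerance 0.01). Probe positions are those of mm9.

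The members and lists were chosen with earlier results of these data known. Control spots and 96 to 137 outlier spots per array were left out, no spot was saturated, log2 signals were set relative to the 75th percentile of each array (118.6 to 158.9), and spots of a probe were averaged. A probe counted as above background on an array when any of its spots did. NZO and B6 were compared with limma 3.58.1 in R 4.3.3 without a block, over 27662 probes, and p-values were adjusted by Benjamini-Hochberg. No p is printed for a member, and the count of members called is a description, because they were chosen from this contrast. Thresholds were an adjusted p of 0.05 and a log2 difference of 0.7. The methods name the same values for p and fold, without a statement there that the p was adjusted. The limma fit was run on simulated data with planted differences and did not call all of them. The criteria of this check were changed after its first result was seen. Listed genes were represented by their brightest tested probe, and the genes named were all members, per list up to 6 called genes and genes with only some probes called, the 3 genes most like Enpp1 and the cell markers. Values quoted for other listed genes (those that did not pass) were chosen after they were seen. Ceacam1 was not analysed here, and the values of 2 listed genes are not reported here, although both genes enter the list summaries. Of 55681 probes, 24282 had no match in the RefSeq gene table and kept the name in the files. Alternatives were normexp, quantile normalization, the deposited table, no filter, slide, scan day, mouse number, the methods' t-test with Welch correction on the same values, unadjusted p, the mean over probes, and each mouse left out.

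Promoter windows came from RefSeq. Python 3.11.15, pandas 2.3.3 and matplotlib 3.10.9 made the plots.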

Additional observations from a re-analysis of the deposited data

Results flagged for a closer look

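In 3 of 64 sets of 4 arrays (1 strain at 1 probe), 1 mouse lay farther from the others than Dixon's 95% limit allows, and chance alone marks about 1 in 20 sets. Insr A_52_P494514 read 0.226 in NZO mouse 007, against 0.90 to 0.93 in the other NZO mice. Irs1 A_52_P175242 read 2.06 in B6 mouse 010, against 1.59 to 1.67 in the other B6 mice. Foxo1 A_51_P138044 read 2.70 in NZO mouse 009, against 2.39 to 2.45 in the other NZO mice.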

How the results depend on the processing

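Main values were 1206 probes higher and 1458 lower in NZO, and 1 listed pathway gene higher and 4 lower. Normexp correction gave 618 and 577 probes and 0 and 1 genes. The deposited table gave 576 higher probes and 0 higher genes, the slide as a fixed term 505 higher probes and 1 lower gene, no filter 0 and 2 genes, the scan day 2 higher genes, and the methods' t-test after adjustment 886 lower probes and 0 and 2 genes. With each mouse left out, 1061 to 1229 probes were higher, 1213 to 1461 lower, 0 to 1 pathway genes higher (0 without NZO mouse 007, 003 or 009 or B6 mouse 010, 015 or 009) and 2 to 4 lower (2 without B6 mouse 010 or 009). With the mouse number as a replicate block, 72 probes were higher and 128 lower, with 0 and 1 pathway genes. Mice with the same number did not deviate together (r -0.26 for number 009 and -0.004 for 011), so the numbers were not taken as pairs. Higher probes made up 45.3% of the calls, 51.7% after normexp correction, 28.8% in the deposited table, 33.9% with the slide as a fixed term and 36% with the replicate block. The deposited table shifted the median of all probes to -0.15, from 0.02. The causes of these changes were not tested. No called value of the members or of the listed genes other than cell markers changed sign. The cell markers were not followed through these settings. The slide term leaves 3 arrays of 1 slide to inform the contrast, and the replicate block only the arrays of numbers 009 and 011. With so few arrays, a call lost in either setting says little about the gene itself. Signal over background limits Enpp1 A_51_P408584, Sos1, Tbc1d4 and Pnpla3, whose dim strain has only a limit on some or all arrays.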
